A study of Mus musculus with 4 samples.

Results

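Neurexins, neuroligins and the leucine-rich repeat transmembrane neuronal (LRRTM) proteins hold the 2 sides of a synapse together. The genes examined were Nrxn2 and Nrxn3, which code for presynaptic neurexins, and 7 genes for postsynaptic partners, namely Nlgn1, Nlgn2, Nlgn3, Lrrtm1, Lrrtm2, Lrrtm3 and Lrrtm4. They were picked by name and role, 9 of the 31053 genes in the deposited tables. Reads came from primary cortical neurons of wild-type mice, by the study's methods C57BL/6J embryos whose cultures received floxuridine to limit dividing cells. Enhanced crosslinking and immunoprecipitation (eCLIP) recovers RNA crosslinked to a protein with an antibody, here one to the ribosomal protein RPS2 of the 40S subunit. The series holds 2 RPS2 IP and 2 total RNA libraries, and the study's methods took total RNA from the same samples ahead of the pulldown, so libraries with the same replicate number form a pair. No other treatment or genotype was compared, and the study divided IP by total counts to gauge translational efficiency by eCLIP. By GEO's labels ribosomal RNA was depleted for the IP and total RNA was left untreated, so an effect of that step and of the IP cannot be told apart if the labels hold.

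As background, neurexins are presynaptic transmembrane proteins whose extracellular domains reach across the synaptic cleft. There they bind neuroligins, LRRTM proteins and secreted adaptors such as cerebellins, and inside the terminal they bind scaffolds such as CASK and the Mint proteins. Neuroligin-1 is known for excitatory synapses and neuroligin-2 for inhibitory ones, while neuroligin-3 is found at both. The LRRTM proteins are found mainly at excitatory synapses. Neuroligins bind PSD-95, the product of Dlg4, and neuroligin-2 also binds gephyrin, the product of Gphn. Neurexins, neuroligins and LRRTM proteins are all membrane proteins, made on ribosomes bound to the endoplasmic reticulum.

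The small ribosomal subunit, which carries RPS2, scans an mRNA from its cap and settles at the start codon, so the sequence around that codon is shown for 8 of the 9 mRNAs. Each line gives 12 bases before the start codon, the codon itself in capitals and 9 bases after it, in the sense of the mRNA, read from the GENCODE M21 transcripts of mouse build GRCm38 (mm10).
Nrxn2: gccgccggaggcATGgcgctcggg
Nrxn3: ccagcaggcaccATGagctttacc
Nlgn1: taatgtgggaccATGgcacttccc
Nlgn2: cccccaatcagcATGtggctcctg
Nlgn3: cctgcccggaacATGtggctgcag
Lrrtm1: agattctcgctaATGgatttcctg
Lrrtm3: acaatacaaaggATGggtttcaat
Lrrtm4: gcacaataaggaATGccaggtttc
The start codons lie at chr19:6428049-6428051 on the plus strand for Nrxn2, chr12:88795185-88795187 on the plus strand for Nrxn3, chr3:26133732-26133734 on the minus strand for Nlgn1, chr11:69834436-69834438 on the minus strand for Nlgn2 and chrX:101301984-101301986 on the plus strand for Nlgn3. Those of the LRRTM genes lie at chr6:77243562-77243564 on the plus strand for Lrrtm1, chr10:64089711-64089713 on the minus strand for Lrrtm3 and chr6:80019180-80019182 on the plus strand for Lrrtm4. A favourable context in vertebrates has a purine 3 bases before the codon and a G right after it. Lrrtm2 is not shown or counted here. Of the 8 mRNAs shown, 7 had the purine, 4 had the G and 3 had both (Nrxn2, Nlgn1 and Lrrtm3). These letters describe the annotated transcripts and were not measured here.

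The genes differ widely in size. Nrxn3 spans 1612 kb and Nlgn1 906 kb, against 14.7 kb for Nlgn2 and 15.1 kb for Lrrtm1. The summed exonic length that reads were counted over ran from 3033 bases (Lrrtm1) to 13812 bases (Nrxn2). The proteins ran from 515 residues (Lrrtm2) to 1703 residues (Nrxn2), as computed from the annotated coding sequences. In the annotation Lrrtm1, Lrrtm2 and Lrrtm3 each lie inside an alpha-catenin gene on the opposite strand, within Ctnna2, Ctnna1 and Ctnna3 respectively, and shared 0 exonic bases with it. Antisense genes do share exonic bases with Nrxn2, Nlgn1 and Lrrtm4, but none of them had more than 20 counts in a library, and the counting used strand. The longest identical stretch between any 2 of the 9 genes was 28 bases, and within a family it was at most 23. The length of the reads was not given in the sources used here.

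Library totals were 16460545 and 9941486 counts for IP replicates 1 and 2 and 5281196 and 4899718 for total RNA, and the 9 genes held between 0.188% and 0.246% of them. One gene annotated as a lincRNA, Gm42418, took 42.6% and 27.9% of IP replicates 1 and 2 and 39.8% and 15.3% of total RNA replicates 1 and 2. The study's single-cell methods set an upper limit on the counts of this gene per cell. What RNA these reads came from was not tested. The labelled cell type was checked with marker genes. All 5 neuron markers, all 4 excitatory and all 3 GABAergic markers had more than 10 counts in every library, as did all 5 astrocyte markers. Of the microglia markers 1 of 5 did, of the oligodendrocyte lineage 2 of 6 and of endothelial cells 0 of 3, with Cldn5 at 0 throughout. The cultures therefore held astrocyte RNA beside that of neurons.

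Levels are given as RPKM, counts per kilobase of exon and 1000000 counts of effective library size (library total scaled by TMM). The length used pools all annotated transcripts of a gene. It was 13812 bases for Nrxn2 against 6667 in its principal transcript, and 5785 against 5568 for Nlgn2. RPKM does not adjust for GC content, which was 61.4% for Nrxn2, the highest gene in total RNA, and 39.7% for Lrrtm2, the lowest. Whether GC content or the choice of length shaped the differences between genes was not tested. Among the presynaptic genes, Nrxn2 stood at 95.2 and 64.6 RPKM in total RNA replicates 1 and 2 and at 69.0 and 48.3 RPKM in IP replicates 1 and 2. Nrxn3 stood at 30.2 and 28.7 RPKM in total RNA and at 29.0 and 24.8 RPKM in the IP. Nrxn2 was therefore the higher of the pair in every library, by a ratio between 1.95 and 3.15. For Nrxn2 each IP library lay below its own total RNA library, but IP replicate 1 lay above total RNA replicate 2, so the groups overlapped.

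Among the neuroligins, Nlgn2 was the highest, at 85.0 and 68.4 RPKM in total RNA and 74.5 and 64.1 RPKM in the IP. Nlgn3 followed at 20.0 and 13.3 RPKM in total RNA and 25.3 and 14.9 RPKM in the IP. Nlgn1 was the lowest, at 4.08 and 3.75 RPKM in total RNA and 5.21 and 3.71 RPKM in the IP. The order was the same in all 4 libraries. The gene for the inhibitory-synapse neuroligin stood 14.3 to 20.8 times above Nlgn1, and it made up 70.9% to 80.0% of the RPKM summed over the 3 neuroligins.

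Among the LRRTM genes, Lrrtm1 stood alone, at 60.5 and 38.5 RPKM in total RNA and 56.9 and 31.7 RPKM in the IP. Lrrtm4 was at 6.19 and 3.98 RPKM in total RNA and 5.997 and 3.61 RPKM in the IP. Lrrtm3 was at 6.65 and 3.05 RPKM in total RNA and 6.70 and 2.98 RPKM in the IP. These middle genes could not be ordered, since their ranges overlapped in both materials. Lrrtm2, which the annotation places at chr18:35209003-35215024 on the minus strand, was the lowest of the 9 genes, at 1.93 and 0.929 RPKM in total RNA and 2.27 and 1.55 RPKM in the IP. Those values rest on 49 and 32 counts in total RNA and 178 and 98 in the IP. Lrrtm1 made up 79.2% to 82.9% of the RPKM summed over the 4 LRRTM genes.

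**Figure D1:**
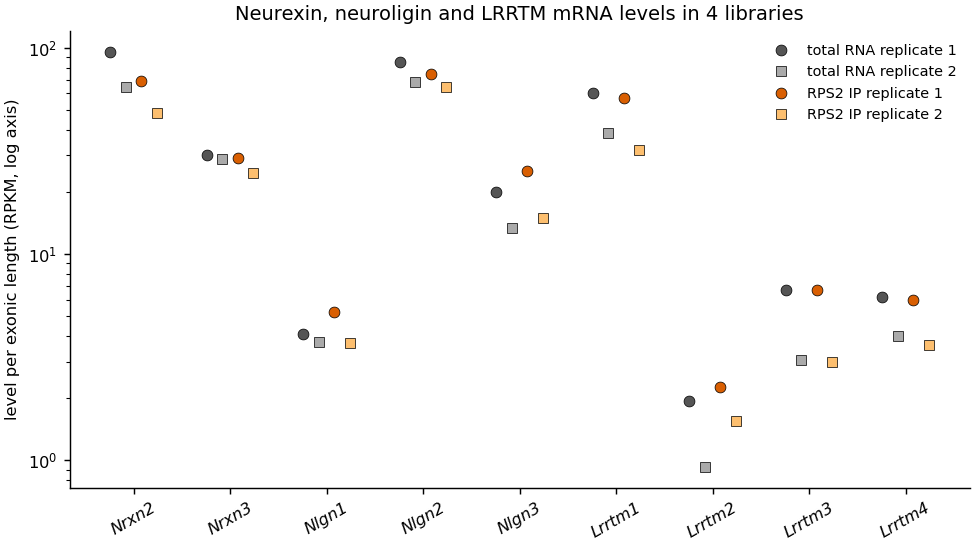
Level of each gene per exonic length (RPKM, log axis) in the 2 total RNA and the 2 RPS2 IP libraries, 1 point per library. Nrxn2, Nlgn2 and Lrrtm1 lie at the top, Lrrtm2 lies lowest, and with this TMM scaling the replicate 1 point lies above the replicate 2 point of the same material for every gene, which by library totals holds in both materials for 6 of the 9.

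In total RNA the mean levels ran from 79.9 ± 21.6 RPKM for Nrxn2 (SD, n = 2) and 76.7 ± 11.7 for Nlgn2 through 49.5 ± 15.5 for Lrrtm1, 29.5 ± 1.05 for Nrxn3 and 16.7 ± 4.70 for Nlgn3 to 5.09 ± 1.56 for Lrrtm4, 4.85 ± 2.54 for Lrrtm3, 3.91 ± 0.236 for Nlgn1 and 1.43 ± 0.705 for Lrrtm2. Nrxn2 and Nlgn2 overlapped in that order, as did Lrrtm4 with Lrrtm3 and Lrrtm3 with Nlgn1. The other neighbours did not overlap. In the IP the order was headed by Nlgn2 at 69.3 ± 7.30 RPKM, with Nrxn2 at 58.7 ± 14.6 and Lrrtm1 at 44.3 ± 17.8, and Nrxn2 overlapped with both. By summed RPKM the 2 neurexin genes, the neuroligins and the LRRTM genes came to 109 ± 22.7, 97.3 ± 16.6 and 60.9 ± 20.3 in total RNA and to 85.6 ± 17.6, 93.8 ± 15.7 and 55.9 ± 22.6 in the IP.

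The comparison of IP with total RNA asks which of these mRNAs were found with the ribosome more or less than their level in total RNA would give. Within a pair, the log2 ratio of IP to total RNA CPM (counts per 1000000, scaled likewise, prior count 2) was taken with its 95% exact binomial interval, which covers counting error only. Nrxn2 was the furthest below 0 in both pairs, at -0.46 (-0.51 to -0.42) in pair 1 and -0.42 (-0.47 to -0.37) in pair 2. Nrxn3 was at -0.059 (-0.14 to 0.021) and -0.21 (-0.29 to -0.14). The RPKM summed over the 2 neurexin genes was lower in the IP by nearly the same amount in each pair, with log2 ratios of -0.36 and -0.35.

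Neuroligins did not share a direction. Nlgn3 was above 0 in both pairs, at 0.34 (0.23 to 0.45) and 0.16 (0.029 to 0.28). Nlgn1 was at 0.35 (0.15 to 0.56) in pair 1 and at -0.016 (-0.22 to 0.19) in pair 2. Nlgn2 was below 0 in both, at -0.19 (-0.26 to -0.12) and -0.094 (-0.17 to -0.021). Since Nlgn2 made up most of the family, the summed RPKM of the neuroligins moved little, with log2 ratios of -0.055 and -0.048. The share of Nlgn3 in that sum was 24.1% and 17.96% in the IP against 18.3% and 15.6% in total RNA.

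For the LRRTM genes the intervals were wide, and most of them held 0. Lrrtm1 was at -0.088 (-0.20 to 0.028) in pair 1 and -0.28 (-0.42 to -0.14) in pair 2. Lrrtm2 was at 0.23 (-0.23 to 0.73) and 0.72 (0.15 to 1.37). Lrrtm3 and Lrrtm4 lay near 0, at 0.010 (-0.28 to 0.31) and -0.036 (-0.44 to 0.38) for Lrrtm3 and at -0.047 (-0.30 to 0.21) and -0.14 (-0.44 to 0.16) for Lrrtm4. At this depth a difference of Lrrtm3 or Lrrtm4 within those bounds was not detectable. Over the 9 genes, 7 had the same sign in both pairs, beside 38 of the 53 partner genes described below. The share over all genes tested was not taken.

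**Figure D2:**
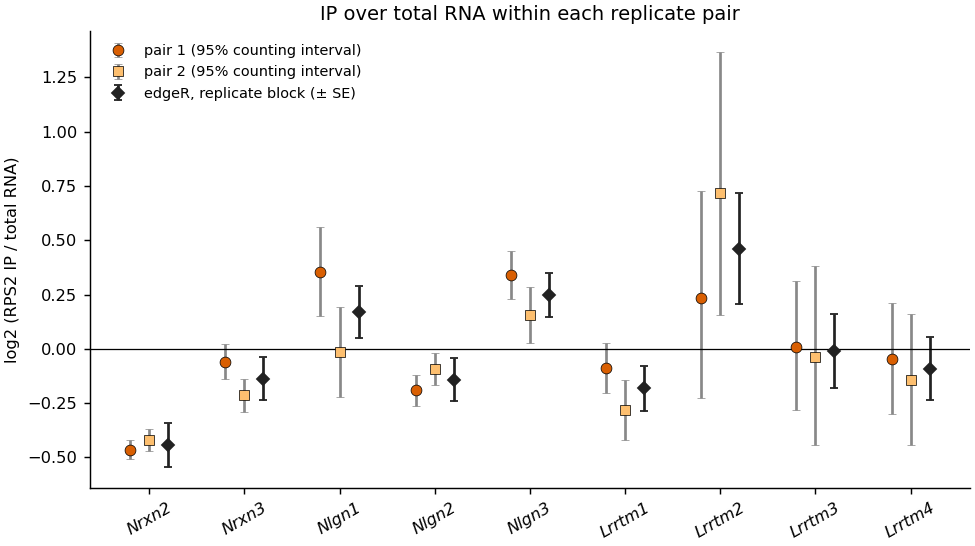
Log2 ratio of RPS2 IP to total RNA for each gene in pair 1 and pair 2 with 95% counting intervals, beside the edgeR estimate (± SE) from the blocked fit. Nrxn2 lies near -0.44 in both pairs with its intervals below 0, Nlgn3 lies above 0 in both, and the intervals of Lrrtm2 are the widest.

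The test across all genes was edgeR's quasi-likelihood test with Benjamini-Hochberg adjustment over 12336 genes, all 9 included. Without pairing, 0 of the 9 genes passed an adjusted p of 0.05 and 0 had an unadjusted p under 0.05, against 349 of all genes tested. Every adjusted p of the 9 was 1.00. The share of all genes called was 0% higher and 0% lower, and DESeq2 without pairing called 0 higher and 5 lower, none of them among the 9. Nrxn2 had a log2 fold change of -0.45 ± 0.30 (SE) in this fit, with an unadjusted p of 0.198. In none of the 9 genes did the IP libraries lie both above or both below the total RNA libraries, while 16.9% of all genes tested had both IP libraries above and 14.9% had both below.

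With the replicate number as a block, which compares IP with total RNA inside each pair, Nrxn2 was called lower in the IP. Its log2 fold change was -0.44 ± 0.10 (a fold of 0.736, lower in 2 of 2 pairs), with an adjusted p of 0.000374 from edgeR's quasi-likelihood test. This was 1 of the 9 genes called lower, against 7.55% of all genes tested, and 0 were called higher, against 6.63%. Nlgn3 had the next lowest p, at a log2 fold change of 0.25 ± 0.10 and an adjusted p of 0.0825, and did not pass. The other 7 genes had adjusted p-values between 0.240 and 0.984, with estimates from -0.18 ± 0.10 for Lrrtm1 to 0.46 ± 0.25 for Lrrtm2. The p-values of this fit measure the spread left within the pairs of these 4 libraries, which may be technical. Without pairing, an exact permutation test of 2 against 2 could not go below 0.333, and 2 pairs allow fewer arrangements still. With the block each gene keeps 1 residual degree of freedom, so these p-values lean on a spread shared over all genes. With library totals in place of TMM the blocked call on Nrxn2 was lost, at -0.52 and an adjusted p of 0.0589 (edgeR).

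The call on Nrxn2 did not hold once GC content and length were taken into account. Nrxn2 mRNA is 61.4% GC, more than 97.8% of the genes tested, while Lrrtm2 is 39.7% and Nlgn1 41.2%. Across the 9 genes the log2 fold change with the block ran against GC content with a Spearman rho of -0.80, and across 12328 genes it did so with a rho of -0.32. Genes are not independent replicates and all share the same 4 libraries, so these are descriptions. With an offset for GC content and exonic length beside the block, Nrxn2 came to 0.017 ± 0.11 (adjusted p = 0.963, edgeR) and Nlgn2 to 0.12 ± 0.10 (adjusted p = 0.559). In that fit Nlgn3 was called higher at 0.32 ± 0.10 (a fold of 1.25, adjusted p = 0.0322), 1 of 9 genes against 3.84% of all genes, and 0 were called lower, against 3.11%. Nlgn3, at 49.7% GC, lies close to the median of 50.5%, but its exonic length of 9271 bases is above the median of 4674.5. Which part of the offset moved its estimate was not tested. Whether base composition or the gene itself set the lower value of Nrxn2 was not tested.

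**Figure D3:**
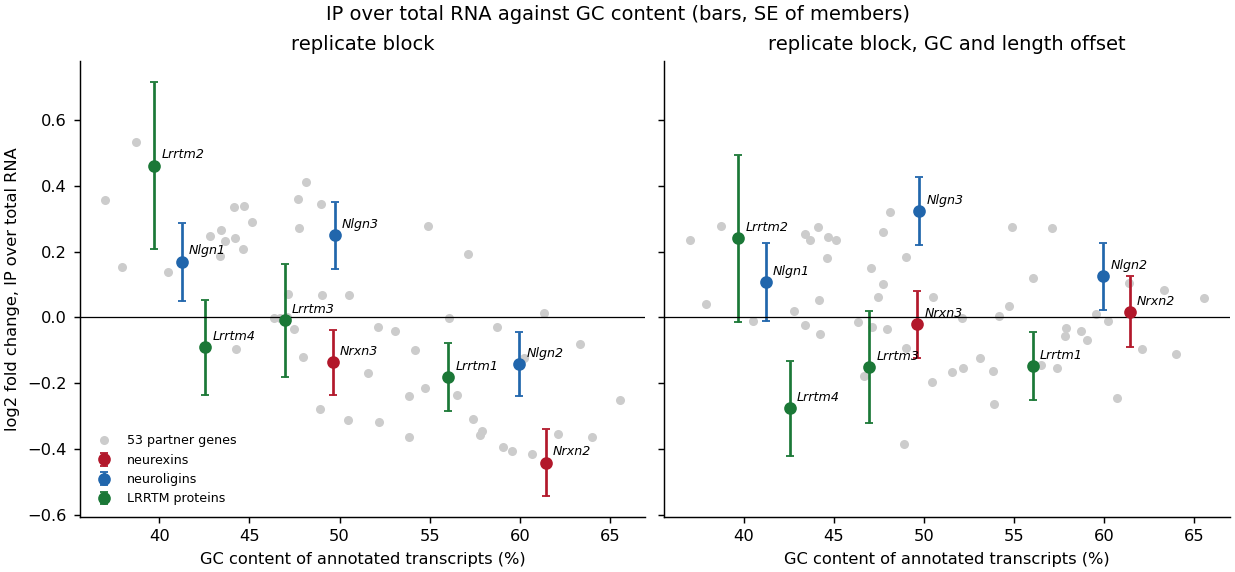
Log2 fold change of IP over total RNA against the GC content of the annotated transcripts (%), with the replicate block (left) and with the block and an offset for GC content and length (right), for the 9 genes with SE bars and 53 partner genes in grey. On the left the values fall from Lrrtm2 to Nrxn2, and on the right Nrxn2 lies at 0.017 and Nlgn3 at 0.32.

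The comparison of the presynaptic with the postsynaptic genes rests on 2 genes against 7. With the block, the median log2 fold change was -0.29 for the neurexins and -0.009 for the 7 postsynaptic genes, beside 0.011 over all genes tested. The presynaptic minus postsynaptic difference of medians was -0.27 in pair 1 and -0.28 in pair 2. With the GC and length offset it was -0.11, with medians of -0.002 and 0.11. Most of the presynaptic value came from Nrxn2, since Nrxn3 had a log2 fold change of -0.14 ± 0.098 (adjusted p = 0.399), close to the -0.14 ± 0.098 of postsynaptic Nlgn2 (adjusted p = 0.377). The difference between the sides was not tested, as the 2 neurexins are not replicates of a presynaptic class.

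A wider set of 53 genes for partners of these proteins, sorted by role, was read from the same fits. Without the block 0 of 53 were called and 0 had an unadjusted p under 0.05. The blocked fit called 3 higher and 11 lower, beside 6.63% and 7.55% of all genes tested, and 39 were not called, with a median log2 fold change of -0.003 over the 53. With the GC and length offset 0 were called higher and 1 lower, beside 3.84% and 3.11% of all genes, and the 1 was Lrrc4 at -0.38 (adjusted p = 0.0323). The 11 genes called lower with the block had GC contents of 50.5% to 64.0%, and the 3 called higher lay below the median of 50.5% over all genes tested.

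On the presynaptic side, 1 of 6 cytoplasmic partners of neurexins was called lower with the block, against 7.55% of all genes tested. It was Apba1, the gene for the adaptor Mint1, at -0.37 ± 0.10 (adjusted p = 0.00375). Its paralog Apba2 was the highest of the group in total RNA, at 73.0 and 91.2 RPKM, and had a log2 fold change of -0.24 (adjusted p = 0.0896). Receptor phosphatases of the LAR family are presynaptic adhesion proteins that bind several of the same kinds of postsynaptic partner, and 2 of 3 were called lower. Ptprs was at 75.7 and 57.7 RPKM in total RNA and at 56.9 and 43.7 in the IP, with both IP libraries below both total RNA libraries and a log2 fold change of -0.41 ± 0.10 (adjusted p = 0.00112). Ptprf was at -0.36 (adjusted p = 0.00403), and Ptprd was at -0.095 (adjusted p = 0.598). With the GC and length offset Apba1 came to -0.26, Ptprs to 0.009 and Ptprf to -0.057, and none of them was called.

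With the block 0 of 8 secreted neurexin ligands were called, against 6.63% of all genes tested called higher and 7.55% lower. The GC and length offset called 0 of them too, beside 3.84% and 3.11% of all genes. Counts among these ligands fell as low as 21 in a library, so depth limits what could be called. C1ql3, which codes for a secreted C1q-like protein, had the highest level, at 48.4 and 105 RPKM in total RNA and 46.3 and 104 RPKM in the IP, so its level differed between replicates far more than between IP and total RNA. Cbln4, a cerebellin, had the next highest mean, at 3.45 and 9.97 RPKM in total RNA, though Nxph1, Nxph4 and Cbln1 lay above it in total RNA replicate 1. C1ql3 and Cbln4 were both lower in replicate 1.

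Of 25 other postsynaptic organizers, 2 were called higher and 5 lower with the block, beside 6.63% and 7.55% of all genes tested. Those lower were Lrfn3 at -0.41, Adgrl1 at -0.39, Lrrc4b at -0.36, Lrfn1 at -0.35 and Clstn1 at -0.31. Adgrl1 codes for latrophilin-1, Lrrc4b for NGL-3 and the Lrfn genes for SALM proteins. Those higher were Lrfn5 at 0.34 (adjusted p = 0.0260) and Flrt2 at 0.34 (adjusted p = 0.0378). The SALM family thus had 2 members called lower and 1 called higher with the block, at GC contents of 62.1% (Lrfn1), 60.7% (Lrfn3) and 44.1% (Lrfn5). With the GC and length offset none of these 3 was called, at adjusted p-values of 0.699, 0.289 and 0.127 from edgeR's quasi-likelihood test. Over the 25 genes that fit called 0 higher and 1 lower, which was Lrrc4, not called with the block. Of the 53 partner genes the calsyntenin genes Clstn1, at 518 and 442 RPKM, and Clstn3, at 198 and 239 RPKM, had the highest levels in total RNA. Clstn3 had a log2 fold change of -0.003 (adjusted p = 0.994).

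Among genes acting on neuroligins, 1 of 3 regulators was called lower with the block, against 7.55% of all genes tested. It was Mdga1, whose product binds neuroligin-2 and blocks its contact with neurexins, at -0.34 ± 0.11 (adjusted p = 0.0174). Adam10, which codes for a sheddase, was at 0.24 (adjusted p = 0.277). Of 8 postsynaptic scaffold genes, Magi2 at -0.32 and Magi1 at -0.31 were called lower. With the GC and length offset 0 of the 3 regulators and 0 of the 8 scaffold genes were called. Dlg4 and Dlg3 had the highest levels, and Dlg4 was at -0.22 (adjusted p = 0.131) and Dlg3 at 0.067 (adjusted p = 0.726).

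**Figure D4:**
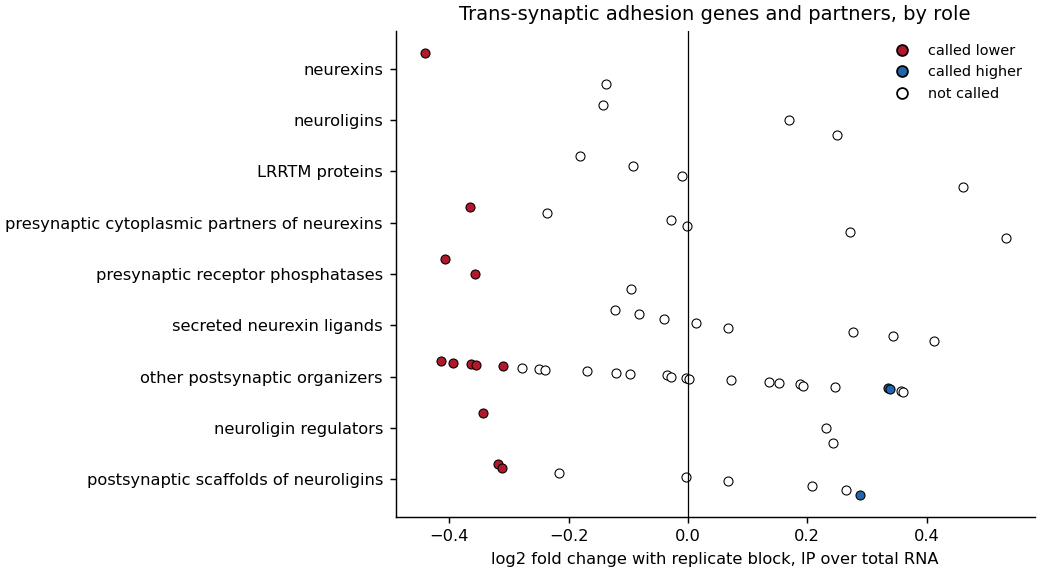
Log2 fold change of IP over total RNA with the replicate block for the 9 adhesion genes and 53 partner genes, 1 row per role and 1 point per gene, filled where the adjusted p was under 0.05. Nrxn2 is the lowest point, and among the partners 11 points are filled as lower and 3 as higher.

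Replicates 1 and 2 differed in the level of the 9 genes. Scaled by TMM, every one of them was higher in replicate 1 than in replicate 2, in the IP and in total RNA, but by library totals Nrxn3 and Nlgn2 turned lower in both materials and Nlgn1 in total RNA, leaving 6 of 9 higher in both. By totals without Gm42418 it was again 9 of 9. Scaled by TMM, 38.4% of all genes tested and 33 of the 53 partner genes were higher in both. Lrrtm3 had the largest difference in the IP and in total RNA, at 2.23-fold and 2.16-fold. Lrrtm1 was 1.79-fold and 1.57-fold higher and Nlgn3 1.70-fold and 1.498-fold. Nrxn3 differed least in total RNA, at 1.05-fold, and was 1.17-fold higher in the IP. The median log2 ratio of replicate 1 to replicate 2 over the 9 genes was 0.54 in the IP and 0.58 in total RNA, beside 0.002 and 0.014 over all genes tested. By library totals it was 0.13 and 0.038, beside -0.41 and -0.53 over the 12289 genes tested that had counts in every library, and all 9 genes lay above that median in both materials under each of the 3 scalings. These other scalings were chosen after the data were seen. With 1 library per replicate and material, this difference has no replicate check.

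Astrocyte and microglia markers were also higher in replicate 1. The summed level of the 5 astrocyte markers was 3163 CPM in IP replicate 1 and 1320 in IP replicate 2, and 2597 and 1168 CPM in total RNA, a 2.40-fold and a 2.22-fold difference (1.80-fold and 1.52-fold by library totals). Microglia markers summed to 23.1 and 3.95 CPM in the IP and to 25.8 and 2.96 CPM in total RNA, with 0 counts of Cx3cr1 in total RNA replicate 2 and 0 of Aif1, P2ry12 and Tmem119 in both replicate 2 libraries. The oligodendrocyte lineage list differed by 1.19-fold in the IP and 1.27-fold in total RNA, and its most abundant marker Mbp was lower in replicate 1, at 35.6 against 44.3 CPM in the IP and 32.7 against 41.1 CPM in total RNA. Neuron markers summed to 3115 and 2865 CPM in the IP and 2744 and 3177 CPM in total RNA, and the log2 ratios of replicate 1 to replicate 2 were -0.18 and 0.045 for the excitatory sums and 0.16 and -0.031 for the GABAergic sums in the IP and total RNA. Single markers within these neuronal sums differed more, and in both directions. In the IP and total RNA the log2 ratios were -0.40 and -0.70 for Snap25 and -0.83 and -1.03 for Slc17a6. They were 0.70 and 0.45 for Rbfox3, 0.44 and 0.61 for Tbr1 and 0.58 and 0.32 for Slc32a1. The part of glial or neuronal RNA in the replicate difference of the 9 genes was not tested. In bulk RNA, fewer cells of a type and less RNA per cell cannot be told apart.

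**Figure D5:**
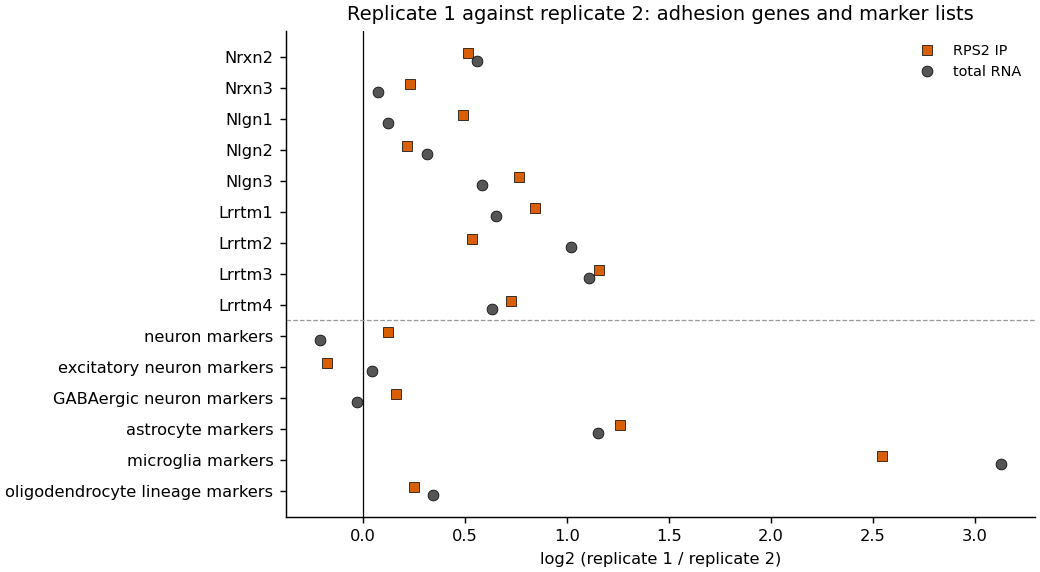
Log2 ratio of replicate 1 to replicate 2 in the RPS2 IP (squares) and total RNA (circles) for the 9 genes and for the summed CPM of 6 marker lists. All 9 genes lie right of 0 with TMM scaling (6 of 9 in both materials by library totals). The sums of the 3 neuronal marker lists lie between -0.21 and 0.16, though single markers in them differed more and in both directions. The astrocyte and microglia lists lie between 1.15 and 3.13.

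The alpha-catenin genes that hold LRRTM genes did not share their levels. Ctnna2 had 332 and 431 counts in total RNA and Lrrtm1 inside it had 824 and 711. Ctnna1 had 261 and 130 counts against 49 and 32 of Lrrtm2, and Ctnna3, with 2 and 0 counts, was too low to be tested, while Lrrtm3 inside it had 127 and 79.

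Of the partner genes, those whose pattern over the 4 libraries lay nearest to the mean pattern of the 9 genes were Ptprd, Dag1 and Adgrl2. Nearness was the Euclidean distance between log2 CPM deviations from each gene's own mean, and it was 0.13 for Ptprd, 0.14 for Dag1 and 0.17 for Adgrl2. Each was above its mean in both replicate 1 libraries and below it in both replicate 2 libraries. The likeness rests on 4 libraries and is mainly that between replicates.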

How the data were processed

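The deposited files hold raw counts of reads per gene, with the exonic length of each gene. Per the file headers, the authors counted with featureCounts 1.5.3 in stranded mode (-s 1) against an mm10 annotation, after trimming with cutadapt and alignment with STAR. Removal of PCR duplicates was not given in the sources used here, so intervals cover counting error only. Of 31053 identifiers, 30934 had a GENCODE M21 symbol on the same build, and 8 of the 9 genes had the same span in both.

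Genes were kept by filterByExpr, scaled by TMM and tested with edgeR 4.0.16 in R 4.3.3 (glmQLFit, glmQLFTest, two-sided, Benjamini-Hochberg over 12336 genes, threshold 0.05). The code was also run on simulated counts with set fold changes. Those counts held no GC or length effect between IP and total RNA, so they cannot show whether the blocked calls are sound. The study's methods give a ratio of IP to total counts per gene and no test of IP against total RNA for single genes. The fit without the block is given first. Replicate numbers were read as pairs because total RNA came from the IP samples, and deviations from group means correlated at 0.733 between same-numbered libraries. The blocked fit is therefore printed where it changes a call. It gave a biological coefficient of variation of 7.93% against 29.7% without the block. The offset for GC content and length was fitted with mgcv 1.9.3, and DESeq2 1.42.0 and limma-voom 3.58.1 were alternatives. Library totals, which set the precision, ran from 4899718 to 16460545 counts.

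The 9 genes, the partner list and the marker lists were chosen with earlier results of these data known. Text names all 9 genes, at most 12 partner genes called with or without the block (largest absolute log2 fold change), the 2 highest per length in each partner group, the alpha-catenin genes and the 3 partner genes nearest in pattern. Lrrc4 falls outside that rule and was chosen after its values were seen. One partner gene in the counts is not reported here by name. Sequences are from GENCODE M21 transcripts.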

Additional observations from a re-analysis of the deposited data

How the results depend on the processing

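With the replicate block 1 of the 9 genes, Nrxn2, was called lower, and 1 was called lower also when the block went with median-ratio size factors, no filter on low counts, at least 10 counts in every library, DESeq2, limma-voom or Gm42418 left out. With library totals only beside the block Nrxn2 was at -0.52 (adjusted p = 0.0589, edgeR). With the GC and length offset 1 gene, Nlgn3, was called higher and 0 lower. The cause of these changes was not tested. Nlgn3 was called in 1 of 9 blocked fits and Nrxn2 in 7 of 9. DESeq2 with the block gave no adjusted p for Lrrtm2 or Lrrtm3.

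Over all genes tested, the block gave 818 higher and 931 lower, and beside it library totals gave 283 and 878, median-ratio size factors 721 and 996, no filter 769 and 699, at least 10 counts 878 and 926, DESeq2 158 and 382, limma-voom 685 and 927, the GC and length offset 473 and 383, and Gm42418 left out 820 and 947. Without the block, no filter gave 14 lower, DESeq2 5, and leaving out 1 library 1 to 8.

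The presynaptic minus postsynaptic median was -0.30 without the block and -0.31 with library totals. It was -0.28 with the block and with every other blocked setting except library totals (-0.29) and the GC and length offset (-0.11). It ran from -0.53 to -0.14 when 1 library was left out without the block, the first without IP replicate 2 and the second without total RNA replicate 2. The postsynaptic median of 0.008 became -0.073 with library totals, and beside the block -0.083 with library totals, -0.027 with median-ratio size factors, -0.030 with DESeq2 and 0.11 with the offset. It ran from -0.30 to 0.41 without 1 library, at -0.26 without IP replicate 1, 0.41 without IP replicate 2, 0.27 without total RNA replicate 1 and -0.30 without total RNA replicate 2.

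With the offset Nrxn2 turned to 0.017 and Nlgn2 to 0.12. Lrrtm3, at 0.008, turned to -0.0094 with the block, -0.073 with library totals, -0.0086 with median-ratio size factors and -0.014 with DESeq2, and beside the block to -0.083, -0.027 and -0.030 with these in turn, -0.011 with limma-voom, -0.15 with the offset and -0.012 without Gm42418. Without 1 library, estimates ran from -0.73 to -0.14 for Nrxn2, -0.25 to -0.028 for Nrxn3, -0.080 to 0.41 for Nlgn1, -0.30 to 0.017 for Nlgn2, -0.17 to 0.60 for Nlgn3, -0.64 to 0.20 for Lrrtm1, -0.011 to 1.04 for Lrrtm2, -0.70 to 0.67 for Lrrtm3 and -0.49 to 0.27 for Lrrtm4, and none was called. The 18 ratios within pairs stayed inside their counting intervals at a prior count of 0.5. Of 18 levels in RPKM under other scalings, 10 moved by less than 1 SD. The count of genes higher in replicate 1 in both materials was 9 with TMM, 6 with library totals and 9 with totals without Gm42418. Depth limits Lrrtm2 most, with 32 counts in 1 library.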
